A study of Homo sapiens with 6 samples.

Results

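Ribosomal protein paralogs are second copies of genes for proteins of the cytosolic ribosome. The 8 members were taken by name: RPL22L1, RPL26L1, RPL39L, RPL36AL, RPL7L1, RPL3L and RPL10L of the large subunit and RPS27L of the small subunit. Each was set beside the canonical gene it resembles (RPL22, RPL26, RPL39, RPL36A, RPL7, RPL3, RPL10 and RPS27). Of the 26425 genes with a transcript in the deposited table, 7 of the 8 paralogs had a value and 6 were above 1 RPKM in all 6 libraries and were tested. RNA came from SUM1315, an established line from a triple-negative breast cancer labelled as wild type, kept for 24 h either at 21% oxygen (3 normoxia libraries) or in an incubator chamber at 1% oxygen (3 hypoxia libraries). Both groups had the same medium with serum, insulin and EGF. The study's stated subject is the making of ribosomes under hypoxia. It is 1 line, and nothing in the labels tells whether the replicates are separate cultures: p-values then cover only how these libraries differ, perhaps for technical reasons. In such bulk RNA a lower value can mean fewer cells that make a transcript or less of it per cell, and these cannot be told apart.

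A ribosome carries one copy of most of its proteins, and in human cells nearly every one of them is made from a single functional gene. The few paralogs are exceptions: their proteins can take the place of the canonical protein in a ribosome, or act outside it. RPL3L is known from heart and skeletal muscle and RPL10L from the testis, while RPL39L is best known from germ cells and some cancers. RPL22L1 is the partner of RPL22, which represses it. RPS27L is a target of the tumour suppressor p53, and RPL7L1 belongs to the particles in which the large subunit is assembled. Canonical ribosomal protein messenger RNAs begin with a run of pyrimidines, the 5′ terminal oligopyrimidine tract, through which the growth kinase mTORC1 controls their translation.

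Values are RPKM, reads scaled by transcript length and library size, as the authors deposited them per transcript and summed here per gene. Depth, read from the smallest steps of the values, lay between 44.0 and 50.9 M reads, with hypoxia replicate 3 the shallowest. A log2 fold change sets hypoxia over normoxia as a difference of mean log2(RPKM + 1), which understates the change of low genes. Raised and lowered mean that limma's p, adjusted by Benjamini-Hochberg over 11889 genes, was under 0.05. All 24 tested HIF targets of a list of 26 were raised, beside 12.4% of all genes tested, which checks the oxygen labels. They were led by SLC16A3, a lactate exporter (0.638 ± 0.132 to 68.1 ± 10.8 RPKM), and DDIT4, an mTORC1 inhibitor (log2 fold change 3.02). Vimentin (VIM) was at 4840 ± 86.5 RPKM in normoxia (mean ± SD, n = 3), while the epithelial keratins KRT8 and KRT18 were under 0.1 RPKM in every library. CD44 was at 452 ± 7.46 RPKM in normoxia, EGFR at 13.3 ± 0.684 and ERBB2 at 21.6 ± 0.327. Of the other receptors listed, ESR1 was at 0.0716 ± 0.119 RPKM in normoxia, and PGR was under 0.1 RPKM or had no matched transcript. Fibroblast markers were split. COL1A1 was at 257 ± 21.2 RPKM in normoxia and COL1A2 at 226 ± 5.25, while PDGFRB was at 0.0715 ± 0.0697. DCN and LUM were under 0.1 RPKM or had no matched transcript. All 5 leukocyte and 9 of 10 testis germ cell markers were under 0.1 RPKM or had no matched transcript. The median SD of log2 values between replicates was 0.061 in normoxia and 0.11 in hypoxia.

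The sequences show how close a paralog can be to its partner, which bears on whether reads can be told apart. The closest pair was RPL39L and RPL39, with coding sequences of 156 bases each that were identical at 94.9% of positions. The coding sequences below are from GENCODE 29 on GRCh38, 5′ to 3′, with the 8 differing bases in capitals.
RPL39L: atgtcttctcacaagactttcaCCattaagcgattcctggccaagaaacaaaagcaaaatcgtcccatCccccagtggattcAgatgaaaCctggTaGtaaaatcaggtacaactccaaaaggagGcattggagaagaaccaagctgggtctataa
RPL39: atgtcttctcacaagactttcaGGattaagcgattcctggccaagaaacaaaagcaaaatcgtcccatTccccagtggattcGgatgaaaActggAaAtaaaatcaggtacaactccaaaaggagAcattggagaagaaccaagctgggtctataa
The RPL39L sequence lies in 1 exon (chromosome 3, 187121145 to 187121300, minus strand), and that of RPL39 is split over 3 exons (chromosome X, 119786684 to 119791576, minus strand). The longest identical stretch of the pair was 44 bases. The longest of any pair was 63 bases, in RPL36AL against RPL36A, which were identical at 90.03% of 321 bases. RPL10L and RPL10 were identical at 89.3% of positions, RPL26L1 and RPL26 at 84.2%, RPS27L and RPS27 at 78.0%, RPL3L and RPL3 at 75.2%, RPL22L1 and RPL22 at 66.6%, and RPL7L1 and RPL7 at 55.3%. Read length, and how reads that fit both copies were assigned, is not given in the sources used here. Values of the RPL39 and RPL36A pairs may be less certain than those of RPL7L1 and RPL22L1, which was not tested. Sequences outside the coding part were not compared.

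At their starts some pairs were alike and others differed. The windows below run from 15 bases before to 15 bases from the start of each gene (RefSeq, GRCh38.p14, 5′ to 3′ on the gene's strand), with the longest run of C and T that reaches into the span from 3 bases before to 5 bases after the start in capitals, also where the run goes on outside that span. They are shown because a pyrimidine run at the start is a hallmark of many canonical ribosomal protein genes, and the 4 canonical partners shown are those of tested paralogs for which both windows were read.
RPL22: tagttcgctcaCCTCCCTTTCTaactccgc
RPL22L1: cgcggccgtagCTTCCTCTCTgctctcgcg
RPL36A: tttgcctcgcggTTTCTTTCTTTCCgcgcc
RPL36AL: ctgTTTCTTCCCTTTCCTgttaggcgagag
RPL26: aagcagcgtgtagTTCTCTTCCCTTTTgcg
RPL26L1: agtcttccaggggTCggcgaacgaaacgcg
RPS27: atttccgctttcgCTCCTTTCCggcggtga
RPS27L: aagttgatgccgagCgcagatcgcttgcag
RPL7L1: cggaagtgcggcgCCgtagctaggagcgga
A run of at least 6 pyrimidines was present in 20% of all 35116 start windows and in 73.4% of the 79 windows of canonical ribosomal protein genes. RPL22L1, with 10 bases (chr3:170870181-170870210, minus strand), and RPL36AL, with 15 (chr14:49620612-49620641, minus strand), had one, as did their partners RPL22 (11) and RPL36A (13). Of the RPL36AL run 12 bases lay before the listed start and 3 from it on, so that by this start most of it is outside the transcript; of the RPL22L1 run 4 lay before the start and 6 from it on. RPL7L1 (chr6:42879601-42879630) had a run of 2, RPS27L (chr15:63157463-63157492, minus strand) of 1, and RPL26L1 of 2 at both of its listed starts (the one shown is chr5:172958714-172958743). RPL26 had a run of 14 and RPS27 of 9. RPL10L had 1, and RPL39L and RPL3L are not in the table of starts. Among the partners not shown RPL39 had a run of 22 and RPL3 of 5, and the 3 listed starts of RPL10 had runs of 5, 13 and 2. The canonical partners shown lie at chr1:6199581-6199610, chrX:101390996-101391025, chr17:8383179-8383208 and chr1:153990747-153990776. The core of the HIF recognition sequence is ACGTG or GCGTG on either strand. In the 300 bases around the start it occurred in 4 of 7 paralog windows, among them both listed starts of RPL26L1. It occurred in 70.9% of the 79 windows of canonical ribosomal protein genes and in 48.4% of all windows.

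The paralogs were expressed at very different levels, in the order RPL36AL, RPL26L1, RPL39L, RPL7L1, RPL22L1, RPS27L and RPL3L in normoxia and hypoxia alike. RPL36AL was at 182 ± 8.69 RPKM in normoxia and RPL26L1 at 86.1 ± 4.58. RPL39L (52.0 ± 3.75) and RPL7L1 (47.2 ± 1.26) lay closest together, and in normoxia their ranges met between 48.2 and 48.6, so that their order there did not exceed the spread. RPL22L1 was at 18.4 ± 1.17 and RPS27L at 12.8 ± 1.44. Of 80 canonical ribosomal protein genes only RPS28 and RPS27, the latter incomplete here, had a lower mean over the 6 libraries than RPL36AL, and only RPS27 had a lower one than RPL26L1, RPL39L, RPL7L1 or RPL22L1.

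**Figure D1:**
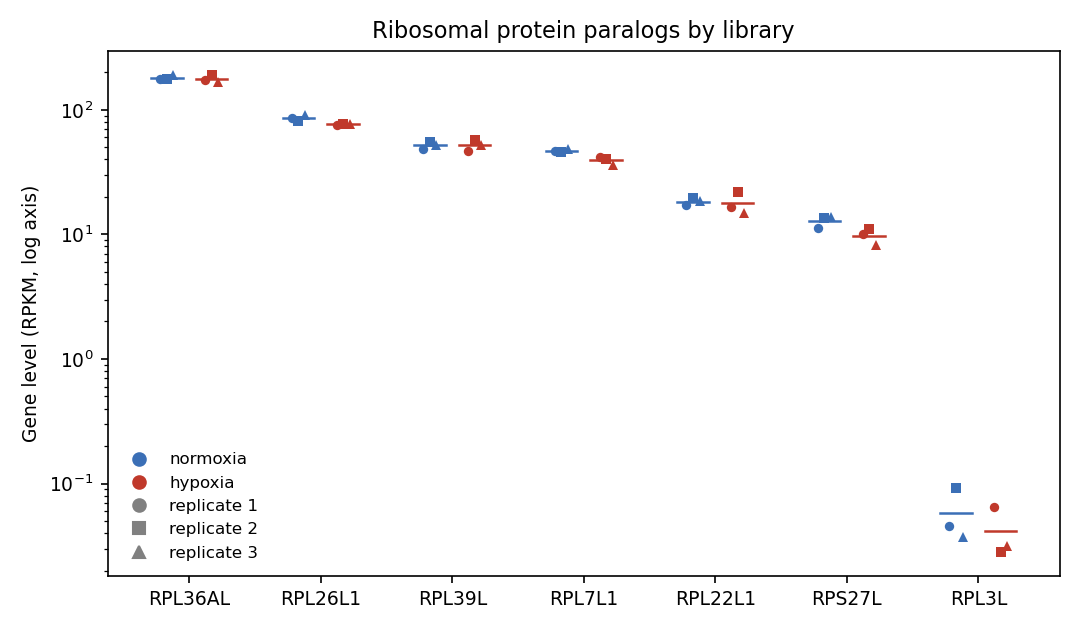
RPKM per gene (log axis) of the 7 paralogs with a value, one point per library, with blue for normoxia, red for hypoxia, symbols for replicate numbers and a line at each group mean. RPL36AL was highest at 168 to 192 RPKM, and RPL3L lay below 0.1 RPKM in all 6 libraries.

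Of RPL3L and RPL10L, the paralogs known from muscle and testis, only RPL3L had a value, and it was near 0. RPL39L, best known from germ cells and some cancers, was at 52.0 ± 3.75 RPKM in normoxia. RPL3L (ENSG00000140986, chromosome 16, 1943974 to 1957606) was at 0.0458, 0.0917 and 0.0370 RPKM in normoxia and 0.0644, 0.0283 and 0.0318 in hypoxia, or about 3.05 to 10.2 estimated reads per library, and the groups overlapped. Its canonical gene RPL3, which makes a protein near the peptidyl transferase centre, was at 1399 ± 49.2 and 1728 ± 52.9 RPKM. Of 10 muscle markers 7 were under 0.1 RPKM or had no matched transcript, and TNNT1, a slow skeletal troponin, was at 88.6 ± 5.26 and 133 ± 15.6. RPL10L was not analysed here, as none of the matched transcripts belonged to it. All 165956 rows of the table held a value above 0 in at least 1 library.

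In hypoxia 3 of the 6 tested paralogs were lowered and 0 raised, while 41 of 80 canonical ribosomal protein genes were raised and 0 lowered. At an unadjusted limma p under 0.05, 3 of the 6 paralogs were lower and 0 higher, and 53 of the 80 canonical genes were higher and 0 lower. The share of all genes at that unadjusted cut was not counted. Over all genes tested 24.4% were lowered and 12.4% raised, with a median log2 fold change of -0.08, against a median of -0.11 over the 6 paralogs and 0.19 over the canonical genes. RPS27L, RPL7L1 and RPL26L1 each had a smaller log2 fold change than any of the 80 canonical genes, whose values ran from -0.07 (RPL24) to 0.44 (RPL13A). The median over all genes tested (-0.0849) also lay below RPL24 (-0.0728), so lying below every canonical gene is not particular to paralogs. The difference between paralogs and canonical genes as groups was not tested. The paralog calls depended on scaling. With median-of-ratios scaling 2027 genes of all were raised and 1421 lowered, with upper-quartile scaling 1819 and 1661, and with libraries rescaled to equal sums 1175 and 4217, against 1479 and 2900. RPS27L, RPL7L1 and RPL26L1 kept a negative log2 fold change under all 3, but with either of the first 2 scalings 0 of the 6 paralogs were lowered, at adjusted p between 0.0518 (RPS27L) and 0.313 (RPL26L1). With no filter on low values 0 were lowered as well, and 0 without normoxia replicate 3, 1 without normoxia replicate 2 or hypoxia replicate 3 and 2 without any other single library.

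**Figure D2:**
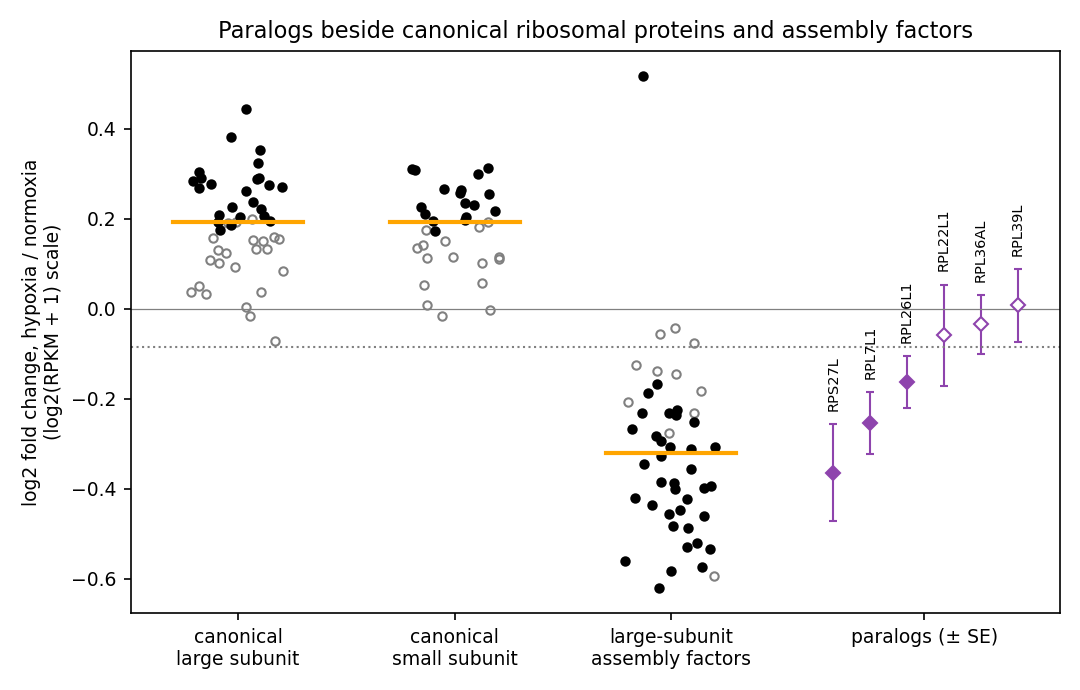
Log2 fold change (hypoxia over normoxia, from log2(RPKM + 1)) for canonical proteins of the large (47 genes) and small (33 genes) subunit, 48 large-subunit assembly factors and 6 paralogs (diamonds, with SE). Filled symbols passed an adjusted p under 0.05 (limma), orange lines are list medians and the dotted line is the median of all tested genes. RPS27L, RPL7L1 and RPL26L1 are the 3 filled paralogs, all below 0.

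RPS27L, the small-subunit paralog induced by p53, had the largest log2 fold change in size of the 6 paralogs. It was at 11.2, 13.5 and 13.8 RPKM in normoxia and at 10.1, 11.0 and 8.21 in hypoxia. All 3 hypoxic libraries were below all 3 normoxic ones, a separation in either direction that 51.9% of all tested genes had. The log2 fold change was -0.36 (SE 0.11, limma adjusted p = 0.0230). The adjusted p was 0.0609 without hypoxia replicate 3 (log2 fold change -0.26), 0.0806 without normoxia replicate 2 and 0.0929 without normoxia replicate 3. With transcripts weighted by length the log2 fold change was -0.24 (adjusted p = 0.0733). RPS27L (ENSG00000185088, chromosome 15, 63125872 to 63158021, minus strand) rests on 345 to 705 estimated reads per library and overlaps LACTB on the other strand over 16190 bases. LACTB, a mitochondrial protein gene, was at 10.5 RPKM in normoxia and 9.68 in hypoxia, and whether counting used strand is not given in the sources. Its part in the RPS27L value was not tested.

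The canonical gene RPS27 could not be set against it. The only coding transcript of RPS27 in GENCODE 29 was not among the matched rows, and its 4 matched transcripts are of retained-intron or decay classes. Their sum was 13.2 ± 0.901 RPKM in normoxia and 16.6 ± 1.08 in hypoxia (log2 fold change 0.31, limma adjusted p = 0.00992), which is no measure of RPS27 messenger RNA.

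RPL7L1, the assembly-linked relative of RPL7, was at 46.8, 46.1 and 48.6 RPKM in normoxia and 42.1, 40.4 and 35.9 in hypoxia. The groups did not overlap, and the lowest value was in hypoxia replicate 3, the library of least depth, without which the log2 fold change was -0.19 (limma adjusted p = 0.0268). It fell by 0.25 on the log2 scale (SE 0.07, limma adjusted p = 0.0150), with 6204 to 9639 estimated reads per library. The call was lost without normoxia replicate 3 (adjusted p = 0.0682) and with trends on GC content and length removed, where the log2 fold change was -0.11 (0.0995). RPL7L1 (ENSG00000146223, chromosome 6, 42879618 to 42889925, plus strand) has a mean transcript length of 3952 bases weighted by expression, against 841 for RPL7.

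The large-subunit assembly factors, the proteins RPL7L1 works among, gave the other direction from the canonical proteins. Of 48 members 36 were lowered and 1 raised, while over all genes tested 24.4% were lowered and 12.4% raised. The list had a median log2 fold change of -0.32 beside -0.08 over all genes. BRIX1, which helps build the early large subunit, was at 20.9 ± 0.778 RPKM in normoxia and 13.4 ± 2.30 in hypoxia (log2 fold change -0.62, limma adjusted p = 0.00158). NOP2, which methylates the large ribosomal RNA, was at 70.7 ± 1.69 and 46.9 ± 2.09 RPKM (-0.58, limma adjusted p = 4.65e-05). The raised member was PPAN, with a log2 fold change of 0.52. The RPL7L1 change of -0.25 lay within the span of this list, from -0.62 to 0.52. That span also holds all 80 canonical genes (-0.07 to 0.44), so lying within it does not link RPL7L1 to the assembly factors. With no filter on low values 23 assembly factors were lowered, and with median-of-ratios scaling 24.

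RPL26L1 differs from RPL26, a protein at the edge of the peptide exit tunnel, by a few residues. It was at 85.3, 82.0 and 91.1 RPKM in normoxia and at 76.2, 76.7 and 77.4 in hypoxia. The 3 hypoxic libraries had an SD of 0.600 RPKM and lay below every normoxic one. The log2 fold change was -0.16 (SE 0.06, limma adjusted p = 0.0449), a call close to the threshold. Leaving out any 1 library ended it, with adjusted p between 0.0503 (without hypoxia replicate 3) and 0.202 (without normoxia replicate 3). With the GC and length trends removed it was 0.0563. RPL26L1 (ENSG00000037241, chromosome 5, 172958729 to 172969771, plus strand) overlaps the antisense gene RPL26L1-AS1, which was at 0.169 and 0.354 RPKM.

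The other 3 tested paralogs did not pass. RPL22L1 (ENSG00000163584, chromosome 3, 170864875 to 170870483, minus strand) was at 17.1, 19.5 and 18.5 RPKM in normoxia and 16.6, 21.7 and 14.98 in hypoxia, where the 3 values spanned the whole normoxic range (log2 fold change -0.06, SE 0.11, limma adjusted p = 0.701). RPL39L (ENSG00000163923, chromosome 3, 187120948 to 187180908, minus strand) was at 48.2, 55.7 and 52.0 RPKM in normoxia and 46.9, 57.5 and 52.5 in hypoxia, with means 0.01 apart on the log2 scale (SE 0.08, limma adjusted p = 0.950). RPL36AL (ENSG00000165502, chromosome 14, 49618519 to 49620685, minus strand), a copy of RPL36A without introns in its coding sequence, was at 178, 176 and 192 RPKM in normoxia and 173, 192 and 168 in hypoxia (log2 fold change -0.03, SE 0.06, limma adjusted p = 0.696). The sign of all 3 changed under some of the alternatives tried. A p above the threshold does not show that these genes did not change, and for RPL22L1 the SD was 1.17 RPKM in normoxia and 3.54 in hypoxia.

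Of the canonical partners RPL26, RPL36A, RPL10 and RPL3 were raised, and RPL39, RPL22 and RPL7 did not pass. RPL26 rose from 1202 ± 22.8 to 1443 ± 95.7 RPKM (log2 fold change 0.26, limma adjusted p = 0.0103). RPL36A rose from 340 ± 25.1 to 396 ± 18.1 (0.22, limma adjusted p = 0.0242). That call ended without normoxia replicate 1 (adjusted p = 0.113), normoxia replicate 2 (0.1) or hypoxia replicate 2 (0.0579), and with libraries rescaled to equal sums (0.0593). With no filter on low values the adjusted p was 0.115 for RPL36A and 0.0706 for RPL26. RPL10, a late-joining protein of the large subunit, rose from 2427 ± 93.2 to 3101 ± 140 (0.35, limma adjusted p = 0.00265), and RPL3 by 0.30. RPL39, which lines the exit tunnel, was at 677 ± 38.3 and 752 ± 11.6 RPKM (0.15, limma adjusted p = 0.0649), with all hypoxic libraries above all normoxic ones. RPL22 was at 378 ± 29.4 and 400 ± 23.2 RPKM (limma adjusted p = 0.363) and RPL7 at 913 ± 52.0 and 946 ± 70.1 (0.592). RPL39 passed with median-of-ratios scaling (limma adjusted p = 0.0120) and upper-quartile scaling (0.0280). With GC and length trends removed RPL22 passed at a log2 fold change of 0.16 (limma adjusted p = 0.0249) and RPL7 at 0.12 (0.0331). RPL36A shares exons with the readthrough gene RPL36A-HNRNPH2, which was at 86.0 and 131 RPKM, so part of its reads may be split.

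Within a library the ratio of a paralog to its partner does not depend on how libraries are scaled. In all 5 pairs with both genes measured the mean ratio was lower in hypoxia, and in 3 of them every hypoxic library was below every normoxic one. Single gene levels separated in this way, in either direction, for 51.9% of all tested genes, so 3 of 5 is near that share. The share for ratios was not counted. All 5 partners had a positive log2 fold change, while the median over all genes was -0.08. A gene at that median would also show a lower ratio to each partner, so a lower ratio is not particular to paralogs. The test of each ratio was a two-sided exact permutation of the libraries, which with 3 against 3 cannot go below p = 0.1, so no pair could pass.

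RPL26L1 stood at 7.24%, 6.82% and 7.45% of the RPL26 level in normoxia and at 5.41%, 4.94% and 5.65% in hypoxia. This was the widest separation, a log2 ratio difference of -0.43, or -25.7% (exact permutation p = 0.1, adjusted p = 0.167 over 5 pairs). RPL7L1 stood at 5.44%, 5.06% and 5.03% of RPL7 in normoxia and 4.496%, 3.96% and 4.07% in hypoxia, a difference of -0.31 or -19.4% (exact permutation p = 0.1, adjusted 0.167). RPL36AL was the only paralog on the scale of its partner, at 55.3%, 53.2% and 52.1% of RPL36A in normoxia and 43.3%, 46.5% and 44.7% in hypoxia, a difference of -0.26 or -16.3% (exact permutation p = 0.1, adjusted 0.167). As a share of the pair's summed RPKM, RPL36AL made up 34.9% in normoxia and 30.9% in hypoxia. In each of these 3 pairs the groups did not overlap.

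RPL39L stood at 7.50%, 8.31% and 7.24% of RPL39 in normoxia and 6.14%, 7.65% and 7.09% in hypoxia, a log2 difference of -0.15 (exact permutation p = 0.3, adjusted 0.375). RPL22L1 stood at 4.96%, 5.07% and 4.58% of RPL22 in normoxia and 4.02%, 5.23% and 4.01% in hypoxia, also -0.15 (exact permutation p = 0.4, adjusted 0.4). In both pairs the groups overlapped, and the highest hypoxic value was in replicate 2. The sizes hung on single libraries. For RPL39L the difference was -0.22 without hypoxia replicate 2, -0.06 without hypoxia replicate 1 and -0.09 without normoxia replicate 2. For RPL22L1 it was -0.28 without hypoxia replicate 2, -0.09 without hypoxia replicate 1 and -0.08 without hypoxia replicate 3.

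**Figure D3:**
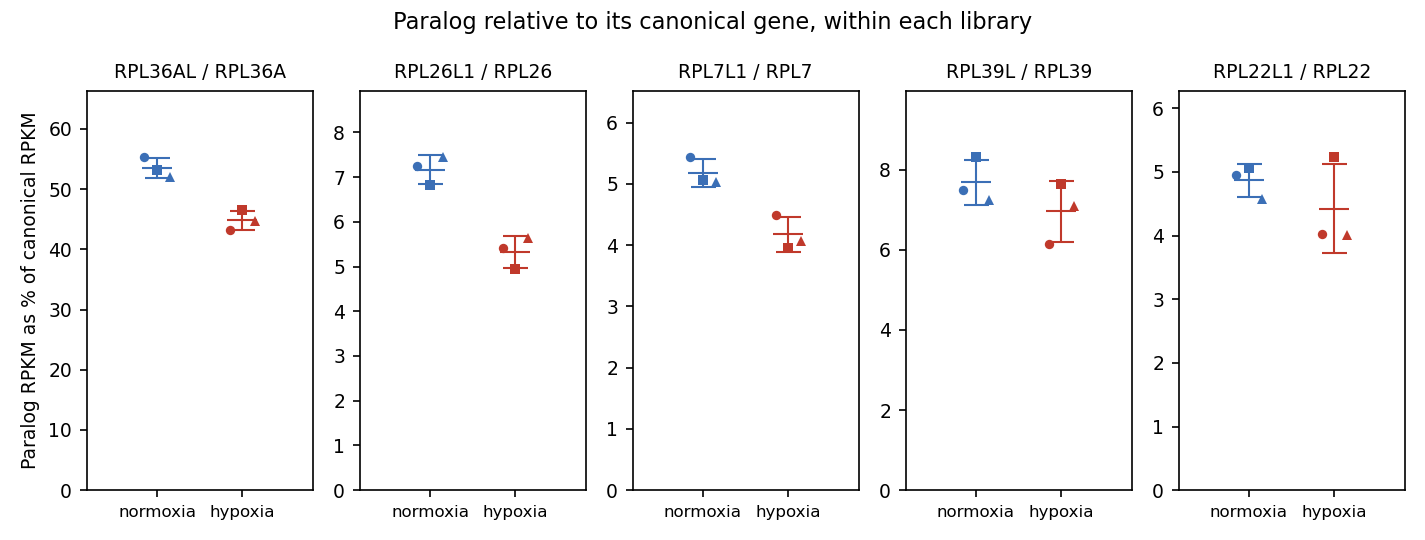
RPKM of each paralog as a percentage of its canonical gene in the same library, one panel per pair and each axis from 0, with bars at the mean ± SD of 3 libraries. Groups are separate for RPL36AL, RPL26L1 and RPL7L1 and overlap for RPL39L and RPL22L1.

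The transcripts behind these gene values were looked at one by one. None of 16 tested paralog transcripts passed an adjusted p under 0.05 over 26790 transcripts (limma), while 4 had an unadjusted p under 0.05. These 4 were RPL26L1-201, RPL7L1-208, RPS27L-202 and RPS27L-203, all of genes picked as lowered. At the adjusted threshold 3.22% of all transcripts were lowered and 3.5% raised. Of 36 tested transcripts of the canonical partners 4 were raised and 1 lowered, and 17 had an unadjusted p under 0.05. The share of all transcripts at that unadjusted cut was not counted. The reads of a gene are split between its transcripts by estimation. Without normoxia replicate 1, 2 or 3 the lowered transcripts numbered 61, 52 and 51 in place of 863, and the raised ones 350, 343 and 333 in place of 937. Without hypoxia replicate 1 the number lowered was 509, and without hypoxia replicate 3 the number raised was 550.

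RPL22L1 had the largest share outside coding transcripts of the 6 paralogs, 46.8% in normoxia. RPL22L1-204, annotated as a target of nonsense-mediated decay, the pathway that removes messages with early stop codons, held 43.6% of the gene's RPKM in normoxia and 41.7% in hypoxia. It was at 8.09, 7.90 and 8.04 RPKM in normoxia and 6.71, 9.16 and 6.33 in hypoxia. The coding transcript RPL22L1-202 was at 6.64 ± 0.933 and 7.15 ± 0.902 RPKM, and the long coding form RPL22L1-201, of 2190 bases, at 3.09 ± 0.323 and 2.48 ± 0.553. Neither differed past the threshold (limma adjusted p = 0.672 and 0.329, and 0.611 for RPL22L1-204).

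In the lowered genes the main coding transcripts had lower means in hypoxia. RPL26L1-201 made up 72.9% of RPL26L1 in normoxia, at 60.5, 60.9 and 67.0 RPKM, and was at 52.996, 53.5 and 56.5 in hypoxia (log2 fold change -0.20, limma adjusted p = 0.0992). RPL26L1-206 was at 10.9 ± 0.250 and 13.2 ± 2.95 RPKM, the opposite direction, without passing. RPL7L1-208 held 72.5% of RPL7L1, at 34.2 ± 1.07 and 28.9 ± 3.03 RPKM (limma adjusted p = 0.131). RPS27L-203 and RPS27L-202 together held most of RPS27L, with log2 fold changes of -0.27 and -0.37 (limma adjusted p = 0.174 and 0.134). All 3 normoxic libraries were above all 3 hypoxic ones for RPL26L1-201, RPL7L1-208, RPS27L-202 and RPS27L-203, a separation in either direction that 34.1% of all tested transcripts had. These transcripts make up most of genes picked as lowered, whose groups did not overlap either. Their separation therefore largely follows from the gene values and is no added support.

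**Figure D4:**
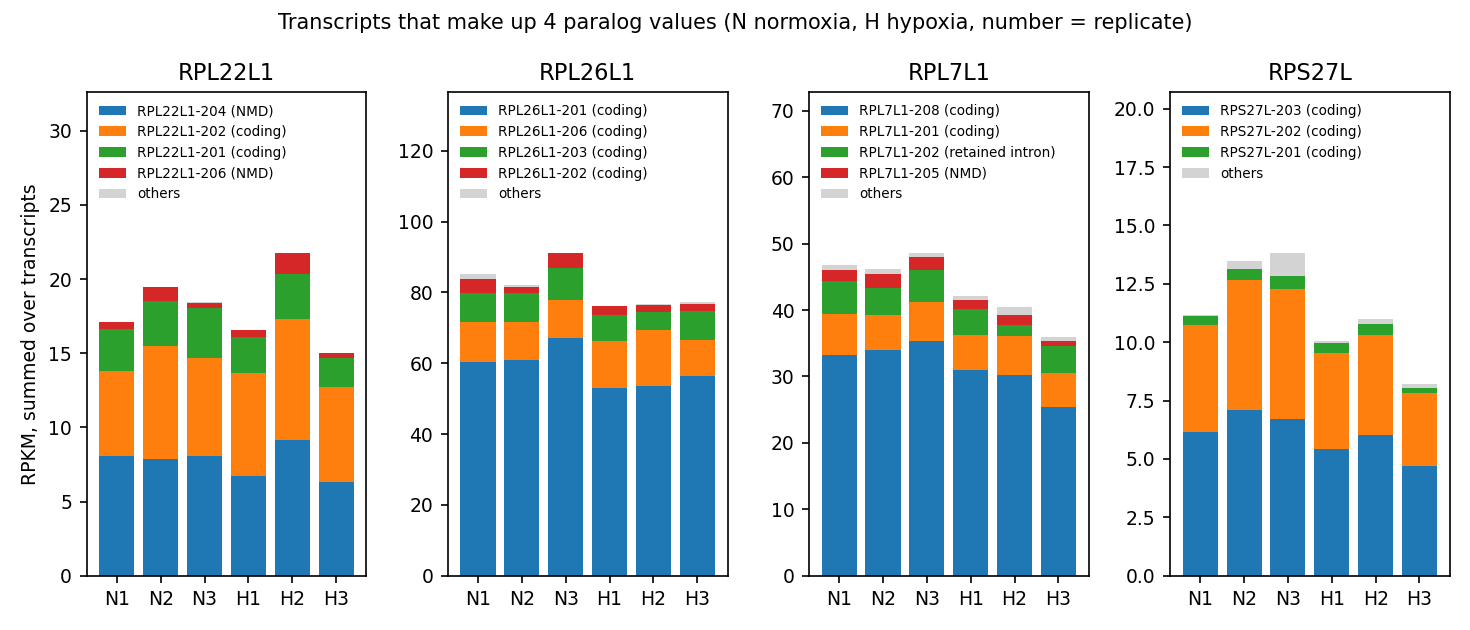
RPKM per transcript, stacked to the gene value, of RPL22L1, RPL26L1, RPL7L1 and RPS27L in each library (N normoxia, H hypoxia, NMD nonsense-mediated decay). RPL22L1-204 makes up 43.6% of RPL22L1 in normoxia, while RPL26L1-201 and RPL7L1-208 make up 72.9% and 72.5% of their genes.

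Among canonical ribosomal proteins 24 of 47 of the large and 17 of 33 of the small subunit were raised, beside 12.4% of all genes. Each list had a median log2 fold change of 0.19. RPS27, with only its noncoding transcripts, is among the 17. RPL13A and RPL13 had the largest log2 fold changes in the large subunit (0.44 and 0.38), and RPS18 in the small subunit (0.31). Without normoxia replicate 1 only 9 and 4 were raised, without normoxia replicate 2 it was 14 and 7, without hypoxia replicate 2 it was 14 and 8, and unfiltered values gave 4 and 2. With median-of-ratios scaling it was 37 and 24. Without normoxia replicate 3 or hypoxia replicate 3 the small-subunit count was 8 or 9, and without hypoxia replicate 1 it was 34 and 24.

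The pattern of each paralog over the 6 libraries was compared with the 80 canonical genes by Pearson correlation of log2(RPKM + 1), as a description. The libraries fall into 2 groups and share depth and scaling, so a shared group difference alone gives a high value. RPL24 was nearest to RPL26L1 (r = 0.27), RPL36AL (0.94), RPL7L1 (0.42) and RPS27L (0.65). Next came FAU for RPL26L1 (0.27) and RPL35A for RPL36AL (0.94), RPL7L1 (0.35) and RPS27L (0.60). RPL22L1 was nearest to RPS27A (0.95) and RPL24 (0.95), and RPL39L to RPL35 (0.88) and RPS20 (0.82). No paralog had its own partner as the nearest gene: RPL7 ranked 8 of 80 for RPL7L1, RPL22 19, RPL36A 26, RPL26 74 and RPL39 78. RPL26L1 and RPL26 ran in opposite directions (r = -0.79).

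Of 23 tested p53 targets of a list of 30, set beside RPS27L, 4 were raised and 8 lowered, with a median log2 fold change of -0.14. These shares are near those over all genes, of which 12.4% were raised and 24.4% lowered. The cell cycle inhibitor CDKN1A rose from 2.27 ± 0.132 to 6.23 ± 0.962 RPKM (log2 fold change 1.14, limma adjusted p = 2.31e-05), and PHLDA3, an inhibitor of AKT, rose by 0.75. The nuclease AEN fell from 35.3 ± 0.723 to 25.1 ± 1.31 RPKM (-0.48, limma adjusted p = 3.11e-04), and cyclin G1 (CCNG1) from 21.3 ± 1.54 to 16.2 ± 1.08. The RPS27L value of -0.36 lay between those of CCNG1 (-0.38) and the list's median. The number lowered was 5 without any 1 normoxic library and with median-of-ratios or upper-quartile scaling.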

How the data were processed

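The 6 libraries were grouped by their titles. Per the submitters' processing notes, Trimmomatic, HISAT2, SAMtools and Partek were used with GRCh38 and hg38. Not given in the sources used here: versions, annotation release, strand setting. RPKM values were deposited by the authors per Ensembl transcript; the unit was inferred from the values. Of 165956 transcripts 140023 (84.4%) matched GENCODE 29; the rest (3.43% to 3.68% of all RPKM) was not used, so gene sums can miss transcripts. Per library, 80.8% to 83.0% of low values of 1-transcript genes lay within 0.1 of a whole read. limma 3.58.1 (R 4.3.3, mean-variance trend, no block) was fitted to log2(RPKM + 1) of features above 1 RPKM in at least 3 libraries, and tested on simulated data. Ratios were compared by exact permutation in Python 3.11.15. RPS27L was left out of the ratios, because RPS27 lacked its coding transcript. Coding sequences were aligned with Biopython 1.88, taking the most similar complete pair. Named genes were the members, their partners, the 2 most correlated canonical genes per member, and up to 2 raised and 2 lowered genes per list. Members and lists were chosen with earlier results of these data known.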

Additional observations from a re-analysis of the deposited data

How the results depend on the processing

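All 5 paralog to partner ratios stayed lower in hypoxia under every alternative run that could change them (pseudocount 1, coding transcripts only, length-weighted values, each library left out, and GC and length trends removed, the last chosen after seeing the data). Over these the log2 difference ran from -0.47 to -0.37 for RPL26L1, -0.37 to -0.23 for RPL7L1, -0.28 to -0.16 for RPL36AL, -0.22 to -0.06 for RPL39L and -0.28 to -0.08 for RPL22L1. A replicate block was also run, but in this balanced design it cannot move a mean difference, so it is no check on the ratios. The number of lowered paralogs was 0 unfiltered and under both scalings (median-of-ratios, upper-quartile), 1 with GC and length trends removed, and 0 to 2 without 1 library. The cause was not tested. Median-of-ratios and upper-quartile scaling lowered 1421 and 1661 genes of all and no filter 1367, against 2900; without 1 library it was 1521 to 2852. Raised large-subunit proteins were 37 under median-of-ratios, 4 unfiltered and 9 to 34 without 1 library, where 0 to 1 were lowered; raised small-subunit proteins were 2 with no filter and 4 to 24 without 1 library, and 1 was lowered with trends removed. Lowered assembly factors were 23 with no filter, and lowered p53 targets 5 with trends removed, either scaling or no filter and 5 to 9 without 1 library. The replicate number as a block gave 451 raised and 98 lowered transcripts, against 937 and 863; a filter at 0.1 RPKM gave 617 and 281, and leaving out 1 library 333 to 743 and 51 to 959. Same-numbered libraries correlated at 0.089, 0.030 and -0.23 in their deviations, and not every library correlated best with its own number. With 3 libraries per group, each centred on its group mean, these values cannot tell whether same-numbered libraries shared a culture or batch. The block lowered 2 paralogs, and RPL26L1 had an adjusted p of 0.0703.

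Signs of genes that did not pass turned. RPL22L1 was at 0.0685 with trends removed, 0.0216 with median-of-ratios and 0.00365 with upper-quartile scaling, and -0.206 to 0.0481 without 1 library. RPL39L was at -0.0473 with trends removed, -0.0603 with libraries rescaled to equal sums, and -0.0625 to 0.0818 without 1 library. RPL36AL was at 0.0444 with trends removed, 0.0504 and 0.0315 with the 2 scalings, and -0.0906 to 0.00432 without 1 library. RPL7 was at -0.0173 with equal sums and -0.00477 to 0.101 without 1 library. Transcript RPL39L-201 ran from -0.0923 to 0.0584 and RPL36AL-201 from -0.0906 to 0.00432 without 1 library. Depth limits RPL3L most, whose values rest on a few reads.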
